A study of Danio rerio with 9 samples.

Results

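The 7 pentose phosphate pathway genes pgls, pgd, rpia, rpe, tktb, tkt and taldo1 were followed in livers of zebrafish larvae given the antibiotic metronidazole. They were found by gene name among the 32520 genes of the deposited count table. Of the 7 names, 6 matched exactly, and tkt matched the row named TKT only without regard to case. A table of RefSeq names gives tkt as a synonym of tktb, so the row TKT may not be the gene meant by tkt, and it is written TKT here. Reads shared between TKT and tktb could not be separated from these counts.

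Wild-type larvae were kept for 24 h in 1 of 3 treatments. The groups were vehicle (0 mM), 1 mM Metronidazole and 10 mM Metronidazole, with 3 libraries each of poly A RNA from microdissected liver. The labels name no transgene, such as the nitroreductase with which metronidazole is used to kill chosen cells, in any of the groups. The sources used here give neither the age of the larvae nor whether a library came from 1 larva or a pool, so p-values measure only the spread between these libraries, which may be technical.

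The pentose phosphate pathway runs beside glycolysis from glucose 6-phosphate. Its oxidative branch, which includes a lactonase (pgls) and 6-phosphogluconate dehydrogenase (pgd), is not reversible and yields NADPH, which liver cells use to reduce glutathione and thioredoxin and to build fatty acids and cholesterol. The non-oxidative branch turns the pentose phosphates so made into ribose phosphate for nucleotides or back into sugars of glycolysis, through an isomerase (rpia), an epimerase (rpe), transketolase (tktb, TKT) and transaldolase (taldo1), and these steps are reversible.

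Total counts ranged from 29993109 to 41300673 per library. The library 1 mM replicate 3 stood apart from the others along principal component 2 (-76.8 against -5.99 to 26.6). Lane 8 held only 10 mM replicate 3, and lane 7 held the rest. Hepatocyte markers made up 85635 to 132210 CPM (a gene's count as a share of its library's total, rescaled to the same total for all libraries with TMM factors) in each library, and none of these 8 genes was at 0. The edgeR quasi-likelihood test called 0 of the 8 in any comparison, while at 10 mM against vehicle 2 had an unadjusted p under 0.05, and DESeq2 called 1 at 10 mM against each other group. Of all tested genes, the edgeR test called 17.2% at 10 mM against vehicle, 0.984% at 1 mM against vehicle and 18.8% at 10 mM against 1 mM. In the same order, DESeq2 called 3520, 506 and 3725 of 16766 genes, and shares of all genes at an unadjusted p were not counted. With only 8 markers, 0 called does not show that hepatocyte content was unchanged. Markers of the exocrine pancreas, which lies beside the liver, reached 6336 to 20614 CPM with overlapping groups.

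At 10 mM the oxidative gene pgd rose most of the 7, 8.42-fold over vehicle, and the non-oxidative genes tktb and taldo1 rose 1.98-fold and 1.58-fold. The other oxidative gene, pgls, and the other non-oxidative genes, rpia, rpe and TKT, were not called. Of all 16766 genes tested, 17.2% were called in this comparison, 9.74% higher and 7.43% lower, against 3 higher and 0 lower of the 7 (edgeR quasi-likelihood test over all genes, Benjamini-Hochberg adjusted p below 0.05). At an unadjusted p under 0.05, 0 of the 7 were lower too, as with DESeq2. The median log2 change of the 7 was 0.21, beside -0.03 over all tested genes. In all 3 called genes every 10 mM library lay above every vehicle library, as in 20.2% of tested genes, and none of the 7 had its 10 mM libraries all below vehicle, as 20.4% did. In these bulk libraries, more cells of a type and more RNA per cell cannot be told apart, nor can fewer cells and less RNA per cell.

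**Figure D1:**
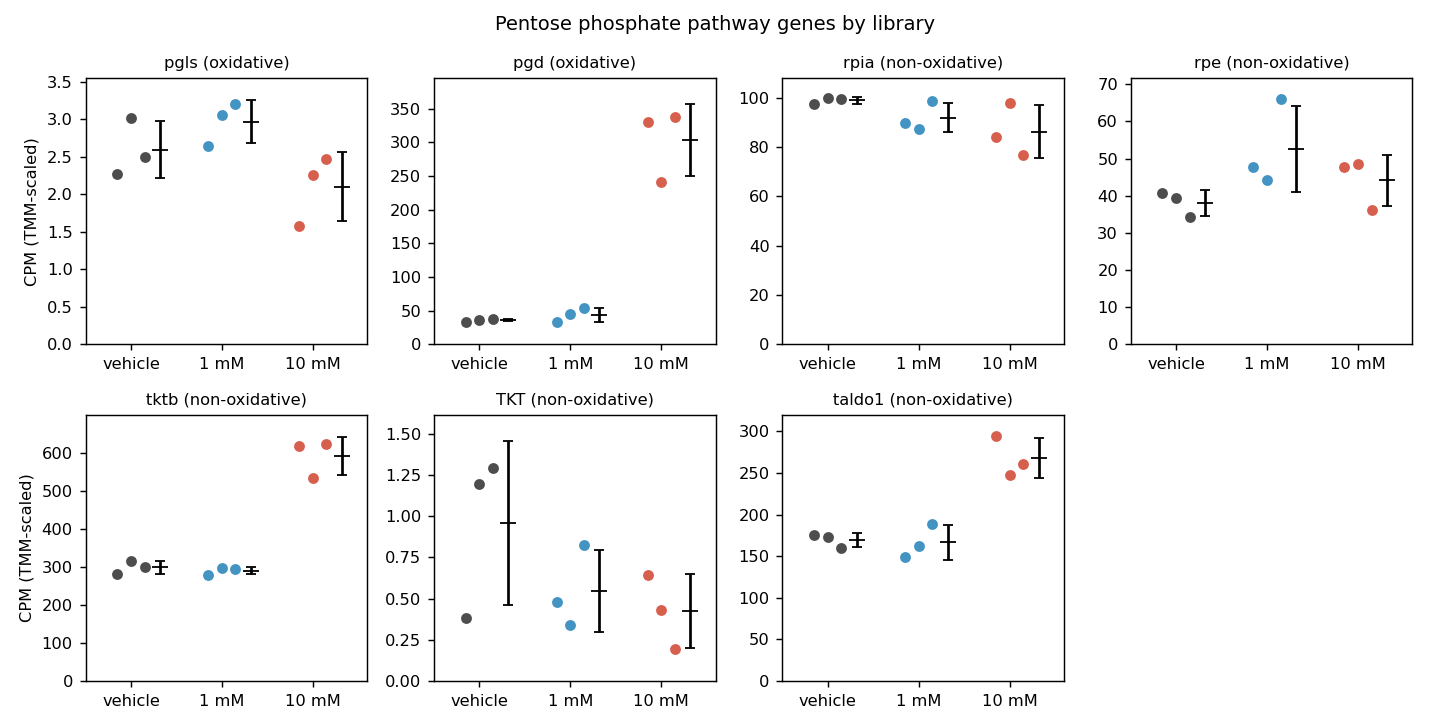
CPM of each gene in every library, by treatment group. Dots are libraries in order of replicate number, and bars are the mean ± SD of 3 libraries. The 10 mM libraries lie above all others for pgd, tktb and taldo1, at 241 to 337 CPM against at most 53.3 CPM for pgd.

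The lactonase gene pgls (ENSDARG00000021233), whose product opens the ring of 6-phosphogluconolactone to give 6-phosphogluconate, had 2.27, 3.02 and 2.49 CPM in vehicle, 2.65, 3.06 and 3.21 at 1 mM, and 1.58, 2.26 and 2.47 at 10 mM. The 10 mM libraries overlapped those in vehicle and lay below all 1 mM libraries, as in 17.1% of tested genes. Its log2 change at 10 mM against vehicle was -0.31 (SE 0.24, adjusted p = 0.443), with a 95% interval from -0.84 to 0.22, and against 1 mM it was -0.50 (SE 0.24, adjusted p = 0.185). Only 64 to 116 reads per library lay behind these levels, and the interval against vehicle leaves out a rise of the size seen for pgd.

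The gene pgd (ENSDARG00000015343) encodes the enzyme that decarboxylates 6-phosphogluconate to a pentose phosphate and makes NADPH in doing so. It had 33.6, 36.7 and 37.6 CPM in vehicle, 32.6, 44.9 and 53.3 at 1 mM, and 330, 241 and 337 at 10 mM. All 10 mM libraries lay far above the rest, and at 1 mM 2 of 3 libraries lay above vehicle and 1 below it. The log2 change was 3.07 at 10 mM against vehicle (SE 0.20, 95% interval 2.65 to 3.50, adjusted p = 3.42e-06) and 2.80 against 1 mM (SE 0.19, adjusted p = 7.35e-06). Of all tested genes, 0.608% had a higher log2 change at 10 mM against vehicle than pgd. At 1 mM the log2 change was 0.28 (SE 0.18, 95% interval -0.12 to 0.67, adjusted p = 0.621), which leaves out a rise of the size seen at 10 mM. The highest 1 mM library was replicate 3, and without it the log2 change at 1 mM was 0.11 (adjusted p = 0.853).

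The gene H6PD (ENSDARG00000060153), from the list of genes at the entry of the pathway, encodes an enzyme that makes NADPH inside the endoplasmic reticulum in mammals. It had 112 ± 24.7 CPM in vehicle, 145 ± 7.21 at 1 mM and 124 ± 7.06 at 10 mM (SD, n = 3 each). Its log2 change at 10 mM was 0.15 (SE 0.15, adjusted p = 0.555), and it passed in none of the 3 comparisons. It is named after its values were seen.

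The isomerase gene rpia (ENSDARG00000056640), whose product makes ribose 5-phosphate, had 97.3, 100.1 and 99.6 CPM in vehicle, 89.9, 87.3 and 98.8 at 1 mM, and 84.0, 98.1 and 76.7 at 10 mM. The vehicle libraries had the smallest spread of any of the 7 genes in any group, with a coefficient of variation of 1.52%, and the groups overlapped. The log2 change at 10 mM was -0.20 (SE 0.12, 95% interval -0.47 to 0.07, adjusted p = 0.312).

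The epimerase gene rpe (ENSDARG00000005251), whose product makes the xylulose phosphate that transketolase uses, had 40.7, 39.3 and 34.2 CPM in vehicle, 47.6, 44.3 and 65.9 at 1 mM, and 47.7, 48.5 and 36.2 at 10 mM. Of the 7 genes, rpe alone had all 1 mM libraries above all vehicle libraries, as did 9.66% of tested genes, and its 10 mM libraries overlapped both other groups. None of the 7 had all 1 mM libraries below vehicle, as did 8.03%. The log2 change was 0.47 at 1 mM (SE 0.17, adjusted p = 0.274) and 0.21 at 10 mM (SE 0.17, 95% interval -0.15 to 0.58, adjusted p = 0.437), and neither passed. The highest library was 1 mM replicate 3, without which the log2 change at 1 mM was 0.27.

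Transketolase moves carbon units between pentose and other sugar phosphates with thiamine diphosphate as cofactor. Its gene tktb (ENSDARG00000006019) had 282, 316 and 299 CPM in vehicle, 280, 297 and 294 at 1 mM, and 618, 535 and 624 at 10 mM. The vehicle and 1 mM libraries lay within the same range, and all 10 mM libraries lay above them. The log2 change at 10 mM was 0.99 against vehicle (SE 0.13, 95% interval 0.71 to 1.26, adjusted p = 0.000207) and 1.03 against 1 mM (SE 0.13, adjusted p = 0.000198). At 1 mM it was -0.04 (SE 0.12, 95% interval -0.31 to 0.23, adjusted p = 0.941).

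The row TKT (ENSDARG00000029689) held only 6 to 52 reads per library, and its levels were 0.383, 1.20 and 1.29 CPM in vehicle, 0.476, 0.340 and 0.825 at 1 mM, and 0.642, 0.431 and 0.195 at 10 mM. The groups overlapped, and the coefficient of variation was 45.8 to 52.9% in the 3 groups. The log2 change at 10 mM was -1.16 (SE 0.60, adjusted p = 0.219), with a 95% interval from -2.46 to 0.14 that leaves out the rise of tktb but holds both no change and a deep fall.

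Transaldolase, which links the pathway back to glycolysis by passing carbon from a heptose to a triose phosphate, is encoded by taldo1 (ENSDARG00000103369). It had 175, 173 and 160 CPM in vehicle, 149, 162 and 189 at 1 mM, and 294, 248 and 261 at 10 mM. All 10 mM libraries lay above the others, and the 1 mM libraries lay on both sides of vehicle. The log2 change at 10 mM was 0.66 against vehicle (SE 0.13, 95% interval 0.37 to 0.95, adjusted p = 0.00421) and 0.69 against 1 mM (SE 0.13, adjusted p = 0.00352). At 1 mM it was -0.03 (SE 0.13, adjusted p = 0.972).

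**Figure D2:**
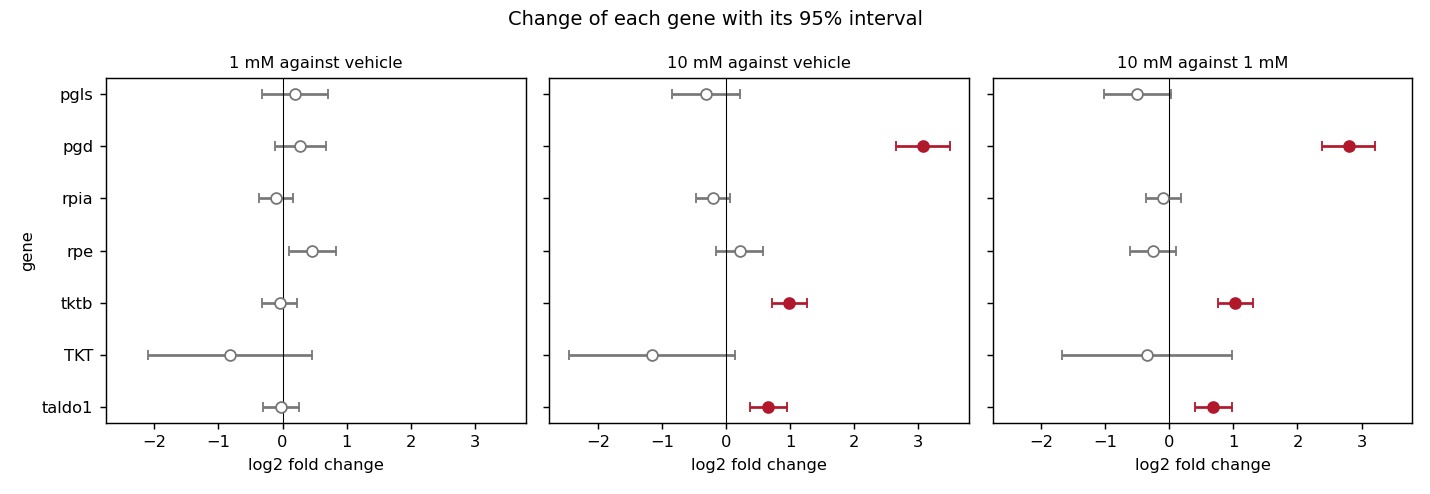
Log2 fold change of the 7 genes in the 3 comparisons, with 95% intervals from the edgeR fit. Filled red points passed the adjusted threshold and open grey points did not. pgd stands at 3.07 at 10 mM against vehicle, followed by tktb at 0.99 and taldo1 at 0.66, and none of the 7 passed at 1 mM.

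The lower dose was asked about in the comparison of 1 mM with vehicle. Of the 7 genes, 0 were called by the edgeR test and 0 by DESeq2, and 1, rpe, had an unadjusted p under 0.05. In that comparison 0.984% of all tested genes were called, 0.889% higher and 0.0954% lower, and their share at an unadjusted p under 0.05 was not counted. Between the doses, 3 of the 7 were called higher at 10 mM than at 1 mM and 0 lower (also 0 at an unadjusted p under 0.05 and with DESeq2), beside 9.39% and 9.41% of all tested genes (18.8% in all). The 3 were again pgd, tktb and taldo1, with no overlap between the doses, as in 16.5% of tested genes, and this comparison shares the 10 mM libraries with that against vehicle.

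To set the oxidative against the non-oxidative branch, the CPM of pgls and pgd were summed and divided by the summed CPM of rpia, rpe, tktb, TKT and taldo1 in each library. Since longer transcripts give more reads, and transcript lengths were not used here, this ratio has meaning only between libraries. It was 0.0602, 0.0631 and 0.0675 in vehicle, 0.0623, 0.0811 and 0.0872 at 1 mM, and 0.318, 0.262 and 0.341 at 10 mM. The 10 mM libraries lay above all others, with a mean 4.82 times that of vehicle, while the 1 mM libraries overlapped vehicle. The oxidative sum went from 38.6 ± 2.34 to 305 ± 53.5 CPM and the non-oxidative sum from 607 ± 20.1 to 991 ± 57.5 CPM between vehicle and 10 mM (SD, n = 3 each). Nearly all reads of the oxidative sum came from pgd.

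Ratios between single genes put the called genes beside each other within a library. Since these genes were called at 10 mM in the same libraries, the ratios are not independent evidence. The ratio of pgd to tktb was 0.119, 0.116 and 0.126 in vehicle and 0.535, 0.451 and 0.541 at 10 mM, a log2 difference of 2.08. The ratio of tktb to taldo1 was 1.61, 1.83 and 1.87 in vehicle and 2.10, 2.16 and 2.39 at 10 mM, a log2 difference of 0.33. In both, the groups did not overlap, so both exact two-sided permutation tests gave p = 0.1, the smallest that 3 against 3 libraries allow (0.15 adjusted over 9 tests of 3 ratios in 3 comparisons), and the threshold cannot be reached in this design.

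The ratio of pgd to taldo1 was 0.191, 0.212 and 0.235 in vehicle, 0.220, 0.277 and 0.282 at 1 mM, and 1.12, 0.973 and 1.29 at 10 mM. The 10 mM libraries lay above all others and the 1 mM libraries overlapped vehicle, with means 5.30 and 1.22 times that of vehicle. The log2 difference was 2.40 at 10 mM (exact permutation p = 0.1, again the smallest possible, 0.15 adjusted) and 0.28 at 1 mM (exact permutation p = 0.2, 0.257 adjusted).

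**Figure D3:**
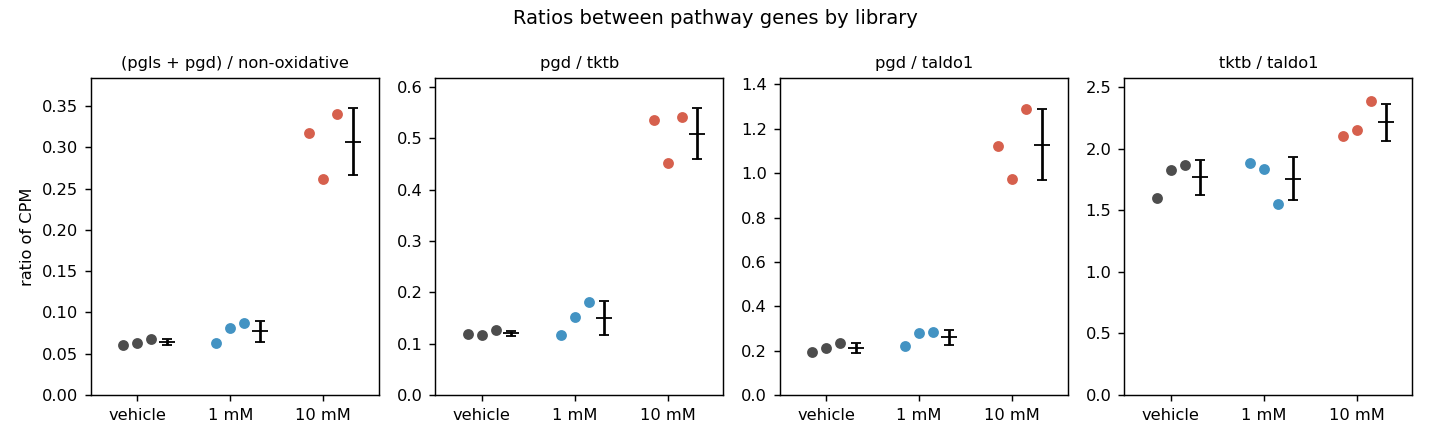
Ratios of CPM in each library: the summed oxidative to the summed non-oxidative genes, pgd to tktb, pgd to taldo1 and tktb to taldo1. Dots are libraries in order of replicate number and bars are the mean ± SD of 3 libraries, with each axis starting at 0. The pgd to taldo1 ratio lies at 0.191 to 0.235 in vehicle, 0.220 to 0.282 at 1 mM and 0.973 to 1.29 at 10 mM.

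Genes around the pathway were read from 5 lists of its entry, its shared intermediates, its products and its NADPH. At 10 mM against vehicle their counts stand beside 9.74% higher and 7.43% lower of all tested genes, with a median log2 change of -0.03. Of 10 genes at the entry from glucose, 2 rose and 2 fell at 10 mM against vehicle (median log2 change 0.15). The gene pgm2 (ENSDARG00000018178), whose product in mammals interconverts ribose phosphates as well as glucose phosphates, rose by 1.18 on the log2 scale (SE 0.13, adjusted p = 8.80e-05). It had 14.3 to 16.3 CPM in vehicle, 20.5 to 26.4 at 1 mM and 32.8 to 38.1 at 10 mM. The other was the glucose phosphate isomerase gene gpia (log2 0.44, adjusted p = 0.0483), which lost its call in 10 of 16 alternatives, among them without any vehicle library or any 10 mM library. The liver hexokinase gene gck, whose product supplies glucose 6-phosphate, fell at 10 mM to 0.303 ± 0.128 CPM against 6.33 ± 2.64 in vehicle (log2 -4.34, SE 0.62, adjusted p = 0.000438), and at 1 mM it stood at 0.965 ± 0.914 CPM (SD, n = 3 each). Its log2 change at 1 mM was -2.69 (SE 0.54, adjusted p = 0.0392), a call lost in 9 of 16 alternatives, among them without any vehicle library, any 10 mM library or 1 mM replicate 2 (highest adjusted p = 0.17). The hexokinase gene hkdc1 fell by 1.11 on the log2 scale (SE 0.21, adjusted p = 0.00326). gpia is named after its values were seen.

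Genes of the glycolytic steps that share fructose and triose phosphates with the non-oxidative branch gave 2 higher and 1 lower of 10 tested (median log2 change -0.02), beside 9.74% and 7.43% of all tested genes. The phosphofructokinase gene pfklb, whose product commits sugar to glycolysis, fell by 1.36 on the log2 scale (SE 0.18, adjusted p = 0.000251), with 39.6 ± 4.94 CPM in vehicle and 15.5 ± 3.25 at 10 mM. The fructose bisphosphatase gene fbp1a, which acts in the opposite direction, rose by 0.63 on the log2 scale (SE 0.13, adjusted p = 0.00604). The aldolase gene aldoaa rose by 0.57 (SE 0.14, adjusted p = 0.0128), a call lost without vehicle replicate 2 or 10 mM replicate 1 or 3 (highest adjusted p = 0.0717).

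Genes of ribose use and salvage gave 2 higher and 1 lower of 9 tested (median log2 change -0.20), again beside 9.74% and 7.43%. The deoxyribose phosphate aldolase gene dera rose by 0.56 (SE 0.11, adjusted p = 0.00437), with 43.7 ± 1.18 CPM in vehicle and 64.6 ± 3.27 at 10 mM. The gene prps1a, whose product charges ribose 5-phosphate for nucleotide synthesis, rose by 0.58 (SE 0.14, adjusted p = 0.0152), a call lost without vehicle replicate 2 or 10 mM replicate 2 (highest adjusted p = 0.0856). The xylulokinase gene xylb, whose product feeds xylulose phosphate into the pathway, fell by 0.73 on the log2 scale (SE 0.16, adjusted p = 0.00635).

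Genes listed as other sources of NADPH gave 3 higher and 1 lower of 9 tested at 10 mM (median log2 change 0.25), beside 9.74% and 7.43% over all genes. Whether each enzyme makes NADPH in these livers was not tested. The cytosolic isocitrate dehydrogenase gene idh1 rose by 0.58 (SE 0.13, adjusted p = 0.00805), with 156 ± 8.78 CPM in vehicle, 219 ± 26.7 at 1 mM and 233 ± 14.3 at 10 mM. At 1 mM against vehicle DESeq2 called it, but the edgeR test did not (adjusted p = 0.118). Between the doses idh1 was not called (adjusted p = 0.688). The malic enzyme genes me1 (log2 0.85, SE 0.20, adjusted p = 0.0102) and me2 (log2 0.67, SE 0.16, adjusted p = 0.0136) rose too. Malic enzymes differ in whether they make NADPH or NADH, so me2 may not be a source of NADPH. The call of me1 was lost without vehicle replicate 3 (adjusted p = 0.0547), and that of me2 without vehicle replicate 1 or 10 mM replicate 3 (highest adjusted p = 0.0679). The 1 lower, named after its values were seen, was the folate enzyme gene aldh1l1 (log2 -0.55, SE 0.15, adjusted p = 0.0233). It had the highest levels of this list, 4400 ± 172 CPM in vehicle and 2999 ± 404 at 10 mM. Its call was lost in 5 of the 16 alternatives, each with 1 library left out, those being the 3 of vehicle and replicates 1 and 3 of 10 mM (highest adjusted p = 0.0953). Without vehicle replicate 1, vehicle replicate 3 or 10 mM replicate 3, this list had 2 higher and 0 lower. Each of these log2 changes was smaller in size than the 3.07 of pgd, a difference that was not tested.

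Genes of glutathione and thioredoxin reduction and related redox enzymes gave 7 higher and 1 lower of 11 tested (median log2 change 0.71), beside 9.74% and 7.43% of all tested genes and their median of -0.03. The list was chosen with results of these libraries known, so its direction is not independent evidence. Glutathione reductase, gsr, which spends NADPH, rose by 1.93 (SE 0.14, adjusted p = 7.94e-06), with 72.6 ± 2.26 CPM in vehicle and 276 ± 39.9 at 10 mM. The genes gclm, of glutathione synthesis, and prdx1, of a peroxiredoxin, rose by 3.18 (SE 0.17, adjusted p = 8.12e-07) and 2.88 (SE 0.29, adjusted p = 4.08e-05) on the log2 scale. Of the 7 higher, nqo1 lost its call when any vehicle library or 10 mM replicate 1 or 2 was left out (highest adjusted p = 0.102), and txn when vehicle replicate 2 or 3 or 10 mM replicate 1 or 3 was (highest adjusted p = 0.0658). Both are named after their values were seen. The 1 lower was hmox1a (log2 -1.26, adjusted p = 0.00692), a heme oxygenase gene named after its values were seen. Over the 49 tested genes of the 5 lists, 16 were higher and 6 lower at 10 mM against vehicle (9.74% and 7.43% of all tested genes). At 1 mM against vehicle, 0 were higher and 1, gck, was lower (0.889% and 0.0954% of all tested genes), while 9 and 3 had an unadjusted p under 0.05 and DESeq2 called 2 and 1. DESeq2 called 506 of all 16766 tested genes at 1 mM against vehicle, 82.8% of them higher. The share of all genes at an unadjusted p under 0.05 was not counted, so the 9 and 3 have no base rate here.

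**Figure D4:**
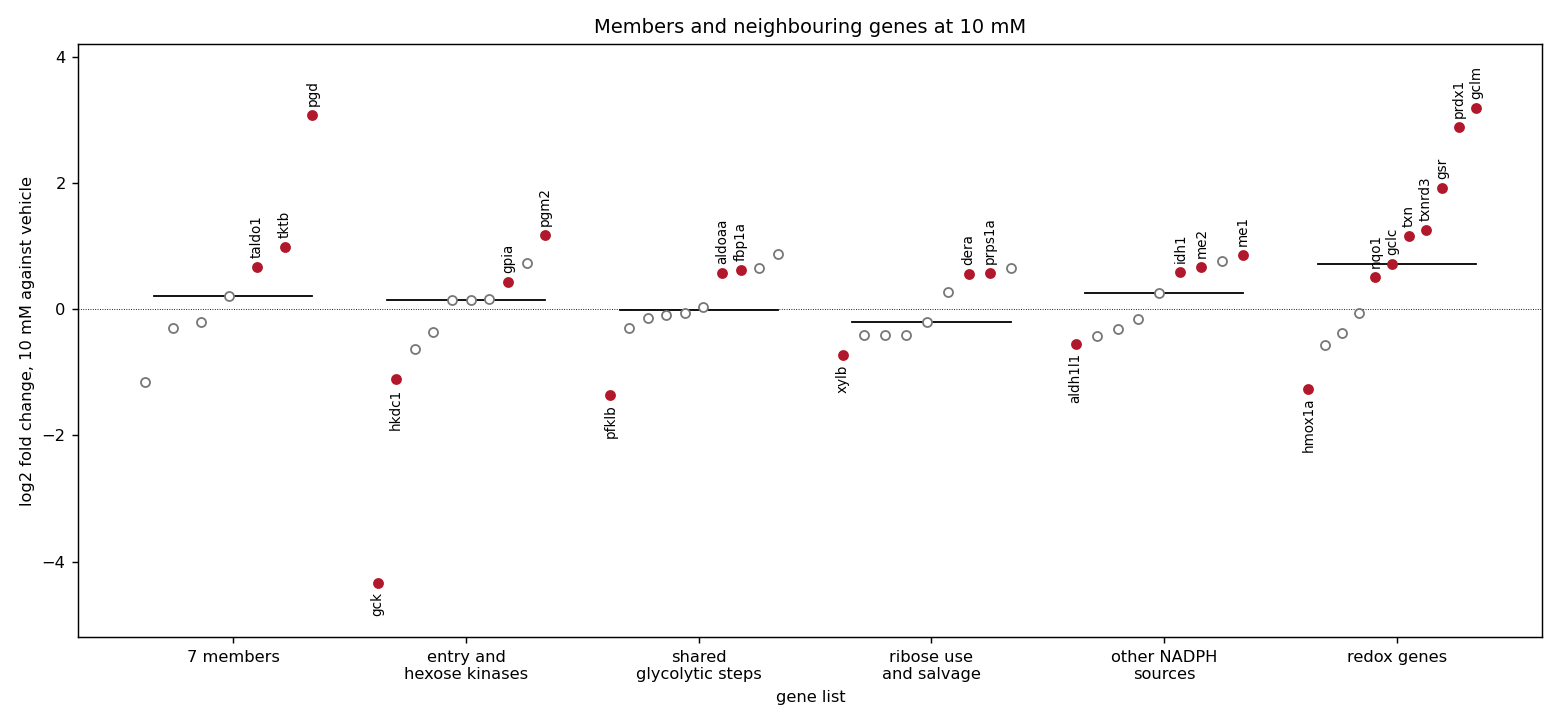
Log2 fold change at 10 mM against vehicle of the 7 genes and of the 5 lists of neighbouring genes, each point a tested gene. Filled red points with names passed the adjusted threshold, open grey points did not, and horizontal lines are list medians. pgd at 3.07 lies near gclm at 3.18 and prdx1 at 2.88, and gck lies lowest at -4.34.

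By the likeness of log2 CPM over the 9 libraries, the genes closest to each called gene were sought among 4993 genes with a symbol and a mean of at least 10 CPM. These correlations are descriptions, since the libraries share groups and a gene that differs at 10 mM scores high with any other that does. Closest to pgd were sqor (Pearson's r = 0.998), a mitochondrial sulfide oxidoreductase gene, AIFM2 (0.997), whose human product reduces coenzyme Q with NAD(P)H, and the gene of the protein segregase vcp (0.996). Between vehicle and 10 mM, sqor rose from 24.1 ± 1.59 to 68.3 ± 8.85 CPM, and vcp from 86.6 ± 3.47 to 179 ± 10.9 (SD, n = 3 each), while AIFM2 rose by 1.97 on the log2 scale (SE 0.14). Closest to tktb were the pyruvate dehydrogenase subunit gene dlat (0.996), TMEM131 (0.995) and gsr (0.994). Closest to taldo1 were the glyoxylate aminotransferase gene agxtb (0.989), fitm2 (0.988), which acts in lipid droplet formation, and the cyclin gene ccnl1b (0.986). The mean of at least 10 CPM was taken over all 9 libraries, and fitm2 lay under it in vehicle, at 6.60 ± 0.255 CPM against 19.1 ± 2.38 at 10 mM.

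Marker genes of other cell types were summed in the same libraries. The 5 biliary markers reached 1656 to 1746 CPM at 10 mM against 1360 to 1419 in vehicle, and 1309 to 2213 at 1 mM, with 0 of 5 called at 10 mM against vehicle (1 at an unadjusted p under 0.05, 0 with DESeq2). Most of that difference lay in 1 gene, krt18a.1, a keratin gene with a mean of 809 CPM in vehicle and 1090 at 10 mM, whereas anxa4 had means of 539 and 563 CPM. The 6 matched macrophage markers reached 47.4 to 55.0 CPM at 10 mM against 34.7 to 41.5 in vehicle, with 1 of 6, marco, called higher (log2 0.74, SE 0.13, adjusted p = 0.00169) and 2 of 6 with DESeq2. Over all tested genes, the edgeR test called 9.74% higher and 7.43% lower at 10 mM against vehicle. DESeq2 called 3520 of 16766, 56.2% of these calls being higher. In 20.2% of all tested genes all 10 mM libraries lay above vehicle. Both sums were higher at 10 mM than in vehicle, as were pgd, tktb and taldo1, and their part in those results was not tested. The biliary sum was highest in 1 mM replicate 3 (2213 CPM), the library that stood apart along principal component 2. There pgd stood at 53.3 CPM, tktb at 294 and taldo1 at 189. The summed markers of endothelial cells (227 to 239 CPM at 10 mM, 234 to 246 in vehicle), erythrocytes (1111 to 1497 and 1113 to 1467), neutrophils (5.45 to 8.78 and 4.28 to 11.1), enterocytes (48.9 to 81.1 and 59.0 to 78.9) and stellate cells or fibroblasts (65.3 to 131 and 57.8 to 70.7) overlapped between 10 mM and vehicle. Among these, 1 gene, the pericyte marker pdgfrb, was called higher (log2 0.70, SE 0.22, adjusted p = 0.0439), beside 9.74% of all tested genes. Its call was lost in 8 of 16 alternatives. In 1 mM replicate 2 the neutrophil markers stood at 34.9 CPM. Of these lists, hbbe3 and fabp6 were at 0 in every library.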

How the data were processed

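Poly A RNA of microdissected livers was sequenced in 9 libraries, 3 per group, with groups taken from the labelled treatment. The deposited table holds raw counts per Ensembl gene; per the submitters' processing notes the authors used HISAT2, featureCounts and genome build GRCz11. Versions, annotation release, strand setting and the handling of multi-mapped reads: not given in the sources used here. Of the counts from 1 to 20, 75.2 to 82.9% were even, as when both mates of a pair are counted, so a count is mostly a read.

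Genes passed filterByExpr (minimum count 10, minimum total 15), which left 16766 genes and all 7 members. Libraries were scaled by TMM, and all 9 libraries entered 1 model of group means, tested with the edgeR (version 4.0.16, R 4.3.3) quasi-likelihood test, two-sided, adjusted by Benjamini-Hochberg over all tested genes, threshold 0.05. The standard error is the log2 fold change over the square root of its F statistic, and 95% intervals use the fit's degrees of freedom. Ratios of single genes were compared by exact permutation over libraries. The members and lists were chosen with earlier results of these data known. Named genes were the 7 members, the 3 with the smallest p at 10 mM in each of 5 pathway lists, and the 3 closest to each called member; others are said to be named after their values were seen. Of the pathway list genes, 80 to 100% per list matched 1 gene each.

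Alternatives were DESeq2 (version 1.42.0) size factors, the DESeq2 test, no count filter, a fit of only the 6 libraries compared, a block for the replicate number, leaving out mitochondrial and the 20 most abundant genes, halved counts, and leaving out each library. In simulated data with 200 changed genes over 16411 to 16431 tested, 41 to 49% of those changed 2-fold and 79 to 83% of those changed 4-fold were recovered over the 3 comparisons, and false calls made up 2.94% (10 mM against vehicle), 6.82% (1 mM against vehicle) and 4% (between doses) of calls. At 10 mM far more genes were called, 2878 against vehicle and 3153 against 1 mM, so these shares may not hold for those comparisons. Depth was 29993109 to 41300673 counts per library. With counts halved, the standard errors at 10 mM against vehicle were 0.195 for pgd, 0.125 for tktb and 0.246 for pgls. In the main fit they were 0.195, 0.126 and 0.244. Sequences, transcript lengths and coordinates were not used here, and 1 gene of the entry list is not reported here.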

Additional observations from a re-analysis of the deposited data

How the results depend on the processing

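The 3 calls of pgd, tktb and taldo1 at 10 mM against vehicle and against 1 mM held under all 16 alternatives run, the replicate block and the libraries 1 mM replicate 3 and 10 mM replicate 3 (the lane 8 library) left out among them. Their log2 changes against vehicle ranged from 2.99 to 3.23, 0.94 to 1.07 and 0.59 to 0.73, with the highest adjusted p at 0.000156, 0.00261 and 0.0284. The number of the 7 called was 3 and 0 for 10 mM and 1 mM against vehicle, and 3 between the doses, in each, with the replicate block too. Matching by exact case left out only TKT, which was not called, so it could not change these counts. Of 336 values of single genes, 332 kept direction and side of the threshold, and 4 uncalled ones changed sign, taldo1 at 1 mM (log2 0.0018 without vehicle replicate 1, 0.043 without 1 mM replicate 1), tktb at 1 mM (0.00055 without vehicle replicate 2) and TKT between the doses (0.080 without 1 mM replicate 3), for which the cause was not tested. Without single libraries these 3 ranged from -0.13 to 0.043, from -0.083 to 0.00055 and from -0.78 to 0.080. Same-numbered libraries did not deviate together (correlations -0.111 to 0.056 over 9 pairs), so the replicate numbers were not taken as pairing the libraries.

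Counts over all genes moved more. At 1 mM against vehicle, 165 genes were called, but 506 with DESeq2, 487 with no count filter, 103 with only the 6 libraries compared and 109 with the replicate block, and 21 to 202 with single libraries left out. At 10 mM the 2878 against vehicle became 3520 with DESeq2 and 3059 with no count filter (of 24861 tested). They became 4102 with only the 6 libraries compared (of 16254 tested) and 2455 with the replicate block. The 3153 against 1 mM became 3725, 3246, 2256 and 2626 in the same order. Without single libraries the ranges were 1854 to 4066 against vehicle and 1963 to 3902 against 1 mM. The ratio of the branches without single libraries was 0.0616 to 0.0653 in vehicle, 0.0717 to 0.0841 at 1 mM and 0.290 to 0.329 at 10 mM. The exact case match was chosen after the data were seen. The low reads of pgls and TKT limit what could be detected for them.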

Other observations

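Cytochrome P450 reductase passes electrons from NADPH to the drug-metabolising P450 enzymes of the liver. Its gene porb (ENSDARG00000059035), chosen after its values were seen, stood at 386 to 460 CPM in vehicle, 350 to 408 at 1 mM and 853 to 944 at 10 mM. It rose at 10 mM against vehicle by 1.09 on the log2 scale (SE 0.13, adjusted p = 0.000159), near the 0.99 of tktb, and at 1 mM its log2 change was -0.15 (SE 0.13, adjusted p = 0.746). The paralog pora (ENSDARG00000055092) stood at 10.9 to 13.2 CPM in vehicle and 14.8 to 16.4 at 10 mM. All its 10 mM libraries lay above vehicle, as in 20.2% of tested genes, and it did not pass (log2 0.38, SE 0.13, adjusted p = 0.0592).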
